A study of Mus musculus with 31 samples.

Results

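The 319 genes described here are the well-expressed long noncoding RNA (lncRNA) genes of mouse embryonic stem cells in which microRNA production could be switched off. Long noncoding RNAs are transcripts that do not encode a protein; many stay at the chromatin where they are made and are degraded quickly, while a few are stable and act in the cytoplasm. MicroRNAs pair through bases 2 to 8 at their 5′ end, the seed, with sites in other RNAs, and the protein complex they guide lowers the stability or translation of those RNAs. Genes were taken from 6604 GENCODE M21 lncRNA genes in the RNA table when their exonic signal averaged at least 5 TPM (a length-scaled share of each library's transcripts) over all 16 libraries. This left 339 genes, of which 20 much-studied or imprinted genes and small nucleolar RNA (snoRNA) hosts were left out by name, among them H19, Meg3, Gas5, Malat1, Neat1 and the Snhg family. The members were chosen by their mean level over all libraries, so levels are a description here. That mean runs over both fractions and both genotypes, so a gene high in only 1 of them could enter through it, and counts and medians over the members are descriptions in the same sense.

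The cells were DTCM23/49 XY mouse embryonic stem cells, labelled as a conditional Dicer mutant, grown with serum and LIF. Dicer is the enzyme that cuts microRNA precursors. The Dicer-depleted group carried that genotype after 8 days of 4-hydroxytamoxifen (4-OHT) at 800 nM, and the labels also give 8 days for the wild-type (WT) group; how WT cells were handled beyond this was not stated. Newly made RNA was tagged with 4-thiouridine (4sU) at 200 µM for 15 or 10 minutes and separated from the rest. The separation gave labelled RNA and preexisting RNA, a fraction that the sample titles call total. Each of the 4 combinations of genotype and fraction held 2 cultures with 2 labelling times each. Small RNA of the Dicer-depleted line was sequenced separately, with 3 libraries per day of treatment, and the labels call day 0 of it Dicer depleted too. All cells came from this line, and the titles number the cultures BR1 and BR2 without naming separate clones, so p-values measure the spread between these cultures.

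Embryonic stem cell markers were present throughout. All 10 embryonic stem cell markers, Pou5f1, Nanog and Sox2 among them, reached 1 TPM in every group, and their summed level in preexisting RNA was 1687 to 1694 TPM in depleted cultures and 1837 to 1869 TPM in WT cultures. Of 8 fibroblast markers, 0 reached 1 TPM in depleted preexisting RNA and 1 did in WT preexisting RNA. Dicer1 itself had 2.22 and 3.16 TPM in depleted preexisting RNA, against 15.5 and 17.6 TPM in WT preexisting RNA (log2 difference -2.26, limma adjusted p = 0.0353). The depth of these libraries is unknown, because the table holds TPM values, so no counting interval can be given. The small RNA libraries held 11134000 to 16216000 reads.

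The microRNAs whose seed sites were searched in the members are shown first. In small RNA, the family with the seed of miR-294-3p is described first for its known place in mouse embryonic stem cells; it had 512 ± 148 RPM (reads scaled to the total of each small RNA library) at day 8 and 23225 ± 2517 RPM at day 0 (SD, n = 3), so 2.20% was kept, or 36.6% with reads on microRNAs as the library size. In RPM miR-182-5p (2364 at day 8 and 38078 at day 0) and the miR-92a-3p family (779 and 27514) stood above it on both days. For the miR-294-3p family day 8 and day 0 did not overlap in RPM (p = 0.1 by an exact two-sided permutation test, which can give no smaller p with 3 libraries a day). The mature sequences below are from RefSeq (GRCm38.p6), 5′ to 3′, with the seed in capitals; the first 3 share 1 seed, and that of miR-17-5p is the same run shifted by a base.

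miR-294-3p: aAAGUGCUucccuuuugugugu
miR-295-3p: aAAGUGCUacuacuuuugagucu
miR-302b-3p: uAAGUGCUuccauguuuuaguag
miR-17-5p: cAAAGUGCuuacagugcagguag

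A 7-base match to the miR-294-3p seed (AGCACTT on the transcript's own strand) was present in the main spliced transcript of 36 of 319 members, or 11.3%, and in 149 of 1068 lncRNA genes of at least 1 TPM, or 14%. Members with a site were longer, with a median spliced length of 1730.5 bases against 861 bases without a site. Windows of 28 bases around the match are shown for 7 members, with the match in capitals. The first 3 are the commonest window among the lncRNA genes of at least 1 TPM, and the others belong to members described below.

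5430405H02Rik: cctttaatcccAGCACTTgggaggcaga
Gm26518: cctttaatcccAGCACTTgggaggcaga
Gm26699: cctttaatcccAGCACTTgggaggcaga
Gm42893: cagatgactaaAGCACTTcagtcatgta
G530011O06Rik: ttggactccagAGCACTTgtctctgtat
Gm26763: gtgttccttctAGCACTTtctcaggaat
1700095A21Rik: gtgttccttctAGCACTTtctcaggaat

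The window of 5430405H02Rik lies on the minus strand of GRCm38 at chr2:156855682-156855709, that of Gm26518 at chr15:102482788-102482815 and that of Gm26699 at chr6:38553581-38553608, both also on the minus strand. Also on the minus strand are those of Gm42893 at chr3:116629880-116629907, G530011O06Rik at chrX:169975481-169975508, Gm26763 at chr4:145681841-145681868 and 1700095A21Rik at chr4:146519717-146519744, each in an exon of the lncRNA's main transcript. The letters shared by 5430405H02Rik, Gm26518 and Gm26699 resemble the B1 family of short interspersed repeats, which is scattered through mouse introns and noncoding transcripts; no repeat annotation was used here. Of 181 windows in lncRNA genes of at least 1 TPM, 22 (12.2%) were within 2 mismatches of that shared window, and 5 members held such a window. The windows of Gm26763 and 1700095A21Rik, 2 genes on chromosome 4, are identical to each other. A read lying wholly within this stretch thus cannot be assigned to either gene by sequence.

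The members were a mixed set by annotation, which bears on each later value. GENCODE classes 133 as lincRNA, 100 as antisense, 72 as processed transcript, 12 as sense intronic and 2 as bidirectional promoter lncRNA. Placed in the first class that held, 3 lie at the ribosomal RNA locus of chromosome 17, 70 share at least 25% of their 31-base words with transcripts of genes elsewhere, 15 are protein coding in RefSeq, 12 overlap a coding exon on their own strand and 103 overlap a coding exon on the other strand. The other 116 had none of these overlaps and are called exon-clear members here. The name speaks of coding exons only: 14 of the 116 lie inside a coding gene on the same strand and 20 start close to a coding gene on the other strand. The counting strand is not given in the sources used here, and reads from a gene and its antisense partner then cannot be told apart. Values of genes with shared words are uncertain in the same way, because RSEM divides reads between near-identical transcripts.

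Abundance was steep: the median member averaged 9.56 TPM, 167 members were below 10 TPM and 14 reached 100 TPM. The 12 most abundant members held 50.7% of all member signal. Just inside the limit were Gm31266 at 5.06, Gm15344 at 5.05, Gm4961 at 5.04, Gm12592 at 5.03 and Tctn2 at 5.01 TPM, and just outside it were Gm4349 at 4.95, Gm43809 at 4.93, Srrm4os at 4.89, Mir22hg at 4.86 and 4930532G15Rik at 4.86 TPM. Of the members, 153 reached 5 TPM in each of the 4 combinations, while 120 did so in labelled RNA only and 17 in preexisting RNA only, and 42 in depleted cells only and 7 in WT cells only.

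Of the 12 most abundant members, 2 were exon-clear. First stood Cct6a, which RefSeq lists as the protein coding gene of a chaperonin subunit, at 1652 and 2175 TPM in depleted and 1538 and 1994 TPM in WT preexisting RNA. Next was Gm26825, with 91.8% of its words shared, with Hspa8, the gene of a constitutive heat shock protein, as the leading match; it averaged 903 TPM. Likewise Gm26623 shared words with the histone gene H2afz, Gm17494 with the cyclophilin gene Ppia, Gm10076 with Rpl41, Gm26619 with Rps18 and Gm13166 with Zfp991. Gm26917 and AY036118 lie at the ribosomal RNA locus, and reads from ribosomal RNA had been removed before quantification, so their values are what that step left. In preexisting RNA Gm26917 had 877 and 357 TPM in depleted and 295 and 328 TPM in WT cultures, so 1 depleted culture stood apart. Gm26582, antisense to G3bp2, completes the 12.

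The exon-clear genes among the 12 were 1110038B12Rik and Platr14. 1110038B12Rik, a spliced gene on chromosome 17 with 2 snoRNAs inside it, had 268 and 325 TPM in depleted and 425 and 319 TPM in WT labelled RNA, and 132 and 69.3 TPM in depleted and 147 and 87.8 TPM in WT preexisting RNA. Both genotypes overlapped in preexisting RNA. Platr14, one of the pluripotency-associated transcripts, named for their expression in embryonic stem cells, is taken up with the genotype comparison.

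**Figure D1:**
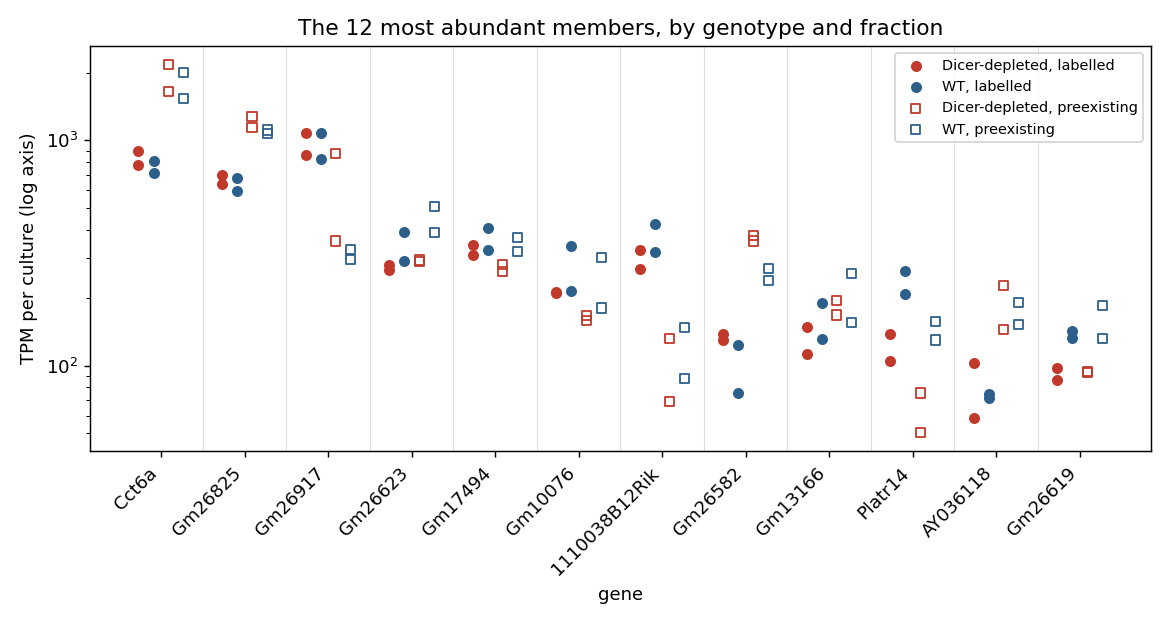
TPM per culture (log axis) of the 12 most abundant members; filled circles are labelled RNA and open squares preexisting RNA, red for Dicer-depleted and blue for WT cultures. Cct6a stands highest, at 1652 and 2175 TPM in depleted preexisting RNA, and Platr14 shows both depleted cultures below both WT cultures in each fraction.

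Labelled RNA was set against preexisting RNA to see which members are mostly found among new transcripts. In these log2 differences on the scale of log2(TPM + 1), a positive value means a larger share of the labelled fraction. Members were mostly higher in labelled RNA: the median difference was 0.90 in depleted and 0.99 in WT cells, against 0.25 and 0.22 for all genes tested. Since 120 members reached 5 TPM in labelled RNA only and 17 in preexisting RNA only, the level limit itself admits genes that are high in labelled RNA, and these medians and counts carry that choice. In depleted cells 161 members were higher in labelled and 27 higher in preexisting RNA at a limma adjusted p under 0.05, or 50.5% and 8.46% of members, where 28.5% and 10.9% of all genes were called. In WT cells the counts were 162 and 17, or 50.8% and 5.33%, where 25% and 7.98% of all genes were called. The median of 11279 protein coding genes was -0.07 in depleted and -0.04 in WT cells, and that of the 729 lncRNA genes of 1 to 5 TPM, which the level limit left out, was 1.14 and 1.04. With values centred on the median gene, the members divided 123 to 55 in depleted and 121 to 53 in WT cells. The shares of all genes called with centring, and in the fits without 1 culture that follow, are not given here. Those member counts therefore cannot be set against all genes. Leaving out 1 WT culture, whichever it was, left 0 members past the threshold in WT cells, with medians of 0.92 and 0.88; such a fit has 1 WT culture per fraction, which is assumed to vary like the depleted ones. Leaving out 1 depleted culture left 97 or 96 in depleted cells.

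The difference varied with the annotation. Exon-clear members had a median of 1.55 in depleted and 1.55 in WT cells. Against 28.5% and 25% of all genes, 79 (68.1%) and 82 (70.7%) of the 116 exon-clear members were higher in labelled RNA. Their summed level was 2738 and 2954 TPM in depleted labelled RNA and 1044 and 976 TPM in depleted preexisting RNA. In WT cells it was 2775 and 2844 TPM in labelled RNA and 1128 and 1102 TPM in preexisting RNA. Members with a coding exon on the other strand had a median of 0.36 in depleted and 0.25 in WT cells. Among these, the 52 with at least 50% of their length over such exons had -0.25 and -0.16, and the other 51 had 0.86 and 0.99. These classes were formed after results were known and no test compares them.

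**Figure D2:**
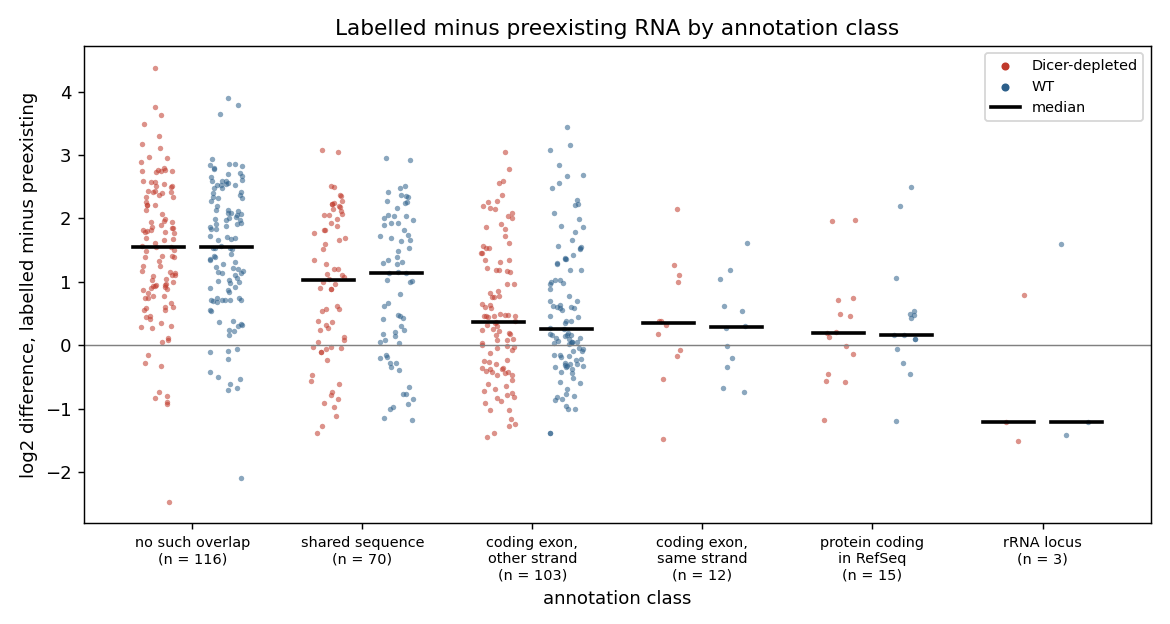
Log2 difference between labelled and preexisting RNA for each member (points), by annotation class, with Dicer-depleted cells left of WT cells in each class and black bars for medians. Exon-clear members ("no such overlap") have medians of 1.55 and 1.55, and members over coding exons of the other strand have medians of 0.36 and 0.25.

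As higher in labelled RNA, 28.5% of all genes passed in depleted and 25% in WT cells. All 14 exon-clear members lying inside a coding gene on the same strand passed in both genotypes. Their medians were 2.43 in depleted and 2.35 in WT cells. They included Gm43585 inside Slc16a1 (24.1 and 20.6 TPM in depleted labelled, 1.8 and 1.4 TPM in depleted preexisting RNA) and Gm15903 inside Nipsnap2. For comparison, the intronic signal of 12472 genes had a median difference of 1.67 in depleted and 1.62 in WT cells. Reads from a host's unspliced RNA and from a transcript inside its intron on the same strand cannot be told apart in these values. Single-exon exon-clear members had medians of 2.41 and 1.97, those with 2 exons 1.81 and 1.88, and those with 3 or more exons 1.04 and 1.15.

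Members far on the labelled side were found in several classes. Gm26804 at chr8:20292477-20420781 had 82.7 and 68.7 TPM in depleted labelled and 3.90 and 1.75 TPM in depleted preexisting RNA, a log2 difference of 4.38 (SE 0.31). In WT cells Gm26804 had 60.9 and 50.5 TPM in labelled and 3.33 and 2.28 TPM in preexisting RNA, a difference of 3.90. It led the members in both genotypes and no culture of one fraction overlapped the other. Gm26853, also on chromosome 8, followed with 3.76 in depleted and 3.79 in WT cells. 4632427E13Rik, which shares a bidirectional promoter with a coding gene by its GENCODE class, had 3.49 and 2.85. 1810026B05Rik, the gene RefSeq names Chaserr, known in mice to hold down its neighbour Chd2, had 3.12 and 2.70. Among members that overlap coding exons on the other strand, Gm36992 over Cep170 had 3.04 in depleted and 3.44 in WT cells, Gm26838 over Hspbap1 had 2.78 and 3.15, and Lrrc75aos2 over Lrrc75a had 2.16 and 3.08.

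Of the X inactivation centre, 2 genes were members. Xist, the RNA that coats the inactive X chromosome of female cells, is low in male cells; here it had 12.5 and 8.78 TPM in depleted and 10.8 and 10.6 TPM in WT labelled RNA, with differences between fractions of 2.74 and 2.71. Ftx had 0.28 in depleted and 1.35 in WT cells, of which the second passed. The 1 member on the list of imprinted genes, Nespas, antisense to the Gnas locus, had 1.62 and 1.53. Xist and Nespas passed in both genotypes.

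A list drawn up by name, of lncRNAs held to be abundant or cytoplasmic, had 7 members. Their median difference was 1.17 in depleted and 1.03 in WT cells. Where these RNAs lie in the cell was not measured, and the values do not describe cytoplasmic lncRNAs as a group. Of the 7, 4 were higher in labelled RNA in each genotype, where 28.5% and 25% of all genes were, and 0 were lower. The 4 were 1810026B05Rik, Dleu2, Dancr and Sox2ot, which spans the Sox2 gene and had 1.82 in depleted and 2.68 in WT cells. The other 3 did not pass, 2900097C17Rik and 1700020I14Rik among them. 2900097C17Rik, which RefSeq names Norad and which binds Pumilio proteins, had -0.78 in depleted and -0.77 in WT cells, with 44.7% of its words shared elsewhere. 1700020I14Rik, also called Cyrano, which directs decay of miR-7, had 0.11 and -0.05.

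A small group leaned to preexisting RNA. Gm15564, a spliced transcript of 402 bases antisense to Kpna1, had 2.09 and 1.79 TPM in depleted labelled and 16.8 and 13.8 TPM in depleted preexisting RNA (log2 difference -2.47, SE 0.26, limma adjusted p = 0.000787). In WT cells its difference was -2.10 (limma adjusted p = 0.00156). Gm15564 was the single exon-clear member to pass on this side in WT cells; in depleted cells Gm14230 at -0.80 and Gm26593 at -0.93 passed too, and the difference of Gm14230 was -0.53 and that of Gm26593 -0.61 in WT cells, where neither passed. Others were Gm26582, which has 65.4% of its length over exons of G3bp2 (-1.45 in depleted and -1.39 in WT cells), Gm29514 (-1.39 and -1.39), and the protein coding Cct6a (-1.18 and -1.20).

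Members with snoRNAs inside them, which are cut from introns while the spliced remainder is often short-lived, numbered 14. Of these, 7 were higher in labelled RNA in depleted and 9 in WT cells, and 1 was lower in each, or 50% and 64.3% higher, against 28.5% and 25% of all genes. 2700038G22Rik had 49.0 and 45.5 TPM in depleted labelled and 6.76 and 7.40 TPM in depleted preexisting RNA, a difference of 2.58, and 2.55 in WT cells. Dancr, a host of snoRNAs that was first described as holding back differentiation, had 2.79 and 2.60, and 1110038B12Rik had 1.61 and 1.69. The 1 lower in each was Cct6a. The pluripotency list held 10 members, and 4 (40%) were higher in labelled RNA in each genotype, where 28.5% and 25% of all genes were, among them Platr4 with 2.58 and 2.33 and Platr20 with 1.56 and 1.15. Lncenc1, tied to glycolysis in naive stem cells, had 0.28 and 0.38, and Platr16 had -0.16 and -0.11; neither passed.

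Depleted and WT cells were then compared within each fraction, the question of the series being what loss of microRNAs does to RNA levels and turnover. At a limma adjusted p under 0.05, 0 of 319 members differed in preexisting RNA, where 0.105% of all genes were called, and 0 differed in labelled RNA, where 0.16% were called. Unadjusted p-values under 0.05 were found for 62 members in preexisting RNA, or 19.4% against 17.5% of all genes, and for 37 in labelled RNA, or 11.6% against 12.4%. In preexisting RNA both depleted cultures lay above both WT cultures for 94 members, or 29.5% against 25.1% of all genes, and below them for 54, or 16.9% against 19.3%. In labelled RNA the numbers were 115 (36.1% against 30.3%) and 58 (18.2% against 20.2%). Because 42 members reached 5 TPM in depleted cells only and 7 in WT cells only, the level limit itself admits genes that are high in depleted cells. These counts and the member medians that follow carry that choice. The median log2 difference was 0.11 in preexisting and 0.15 in labelled RNA, against 0.05 and 0.07 for all genes. With the averaged values of each culture and fraction centred on their median gene, the median of the members was 0.02 and 0.03. In bulk RNA, fewer cells that make a transcript and less of it per cell cannot be told apart. The summed level of 6 neural or mesoderm markers was 18.6 to 26.9 TPM in depleted and 9.37 to 12.9 TPM in WT preexisting RNA. Of these, 2 of 6, Pax6 and Nes, were at 1 TPM or more in each genotype, and T and Meox1 were at or near 0. Most of the sum was Pax6, at 11.6 and 23.5 TPM in depleted and 6.62 and 10.0 TPM in WT cultures (limma adjusted p = 0.323). Nes overlapped between the genotypes (limma adjusted p = 0.529). Summed trophoblast markers (24.3 to 43.4 TPM in depleted, 28.4 to 32.3 TPM in WT) and primitive endoderm markers (4.99 to 12.6 and 5.69 to 6.76 TPM) also overlapped. The part of these markers in the members' values was not tested.

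**Figure D3:**
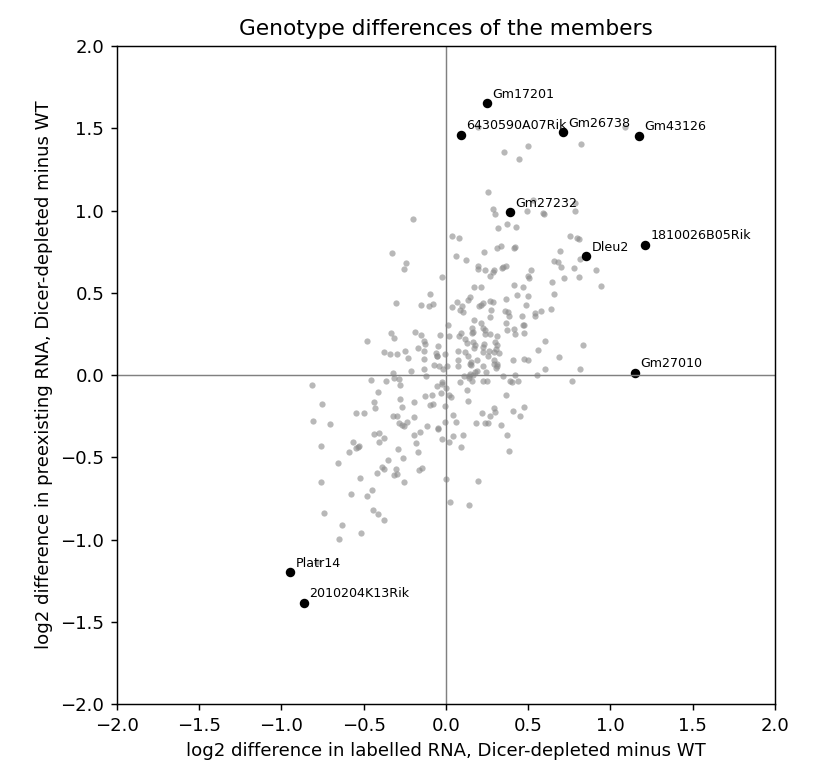
Log2 difference between Dicer-depleted and WT cells in labelled RNA (horizontal) and preexisting RNA (vertical) for the 319 members, with 10 named. Both values of a member come from the same cultures. Platr14 lies at -0.95 and -1.20, 1810026B05Rik at 1.21 and 0.79, and no point passed the adjusted threshold on either axis.

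Platr14 had the smallest p among members lower in depleted cells in both fractions. In labelled RNA it had 111 and 135 TPM after 15 minutes and 99.2 and 142 TPM after 10 minutes in depleted cultures. WT cultures had 209 and 273 TPM after 15 minutes and 206 and 254 TPM after 10 minutes. In preexisting RNA depleted cultures had 55.3 and 64.0 TPM from the 15 minute libraries and 45.2 and 86.9 TPM from the 10 minute libraries, and WT cultures had 113 and 154 TPM and 147 and 158 TPM. Every depleted library was below every WT library of its fraction. Averaged by culture, Platr14 had 122 ± 23.3 TPM in depleted and 235 ± 39.8 TPM in WT labelled RNA, and 62.9 ± 17.9 TPM in depleted and 143 ± 18.7 TPM in WT preexisting RNA (SD, n = 2). The log2 difference was -0.95 in labelled RNA (SE 0.25, limma adjusted p = 0.269) and -1.20 in preexisting RNA (SE 0.25, limma adjusted p = 0.102), and neither passed. With a replicate block the preexisting difference of Platr14 passed (limma adjusted p = 0.0425). Its introns gave the same order, 70.0 and 71.0 TPM in depleted and 109 and 118 TPM in WT labelled RNA (log2 -0.68, limma adjusted p = 0.0702). On this side followed 2010204K13Rik (-1.38), 1110002L01Rik over Kif3c (-0.84), Gm26619 (-0.72), Gm43118 (-0.88) and Gm28037 (-0.91), none of which passed. The other 9 pluripotency-associated members ran from -0.58 for Platr20 to 0.26 for Platr30 in preexisting RNA.

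The smallest p among members higher in depleted preexisting RNA was that of 6430590A07Rik, a spliced transcript that starts within 1000 bases of a coding gene on the other strand and lies inside the bounds of Abhd18. It had 1.90 and 5.96 TPM in the 15 minute and 6.93 and 4.17 TPM in the 10 minute preexisting libraries of depleted cells. WT cells had 1.28 and 1.31 TPM and 1.13 and 0.624 TPM. The genotypes did not overlap, although 1 depleted library was close to WT. In labelled RNA depleted cultures had 10.3 and 11.4 TPM and WT cultures 10.3 and 9.93 TPM, 4 values close together. The difference was 1.46 in preexisting RNA (SE 0.21, limma adjusted p = 0.0505) and 0.09 in labelled RNA (limma adjusted p = 0.889), and in the ratio of preexisting to labelled RNA it was 1.37 (limma adjusted p = 0.99992). The preexisting difference passed with genes of at least 5 TPM alone, libraries averaged on the log2 scale, a 0.1 TPM pseudocount or a replicate block. It did not pass in others: the limma adjusted p was 0.457 with only the compared groups in the fit, 0.109 with no filter and 0.0734 with centring. Without 1 culture the difference was 1.38 to 1.54. With the 15 minute libraries alone the difference was 0.97 (limma adjusted p = 0.539).

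**Figure D4:**
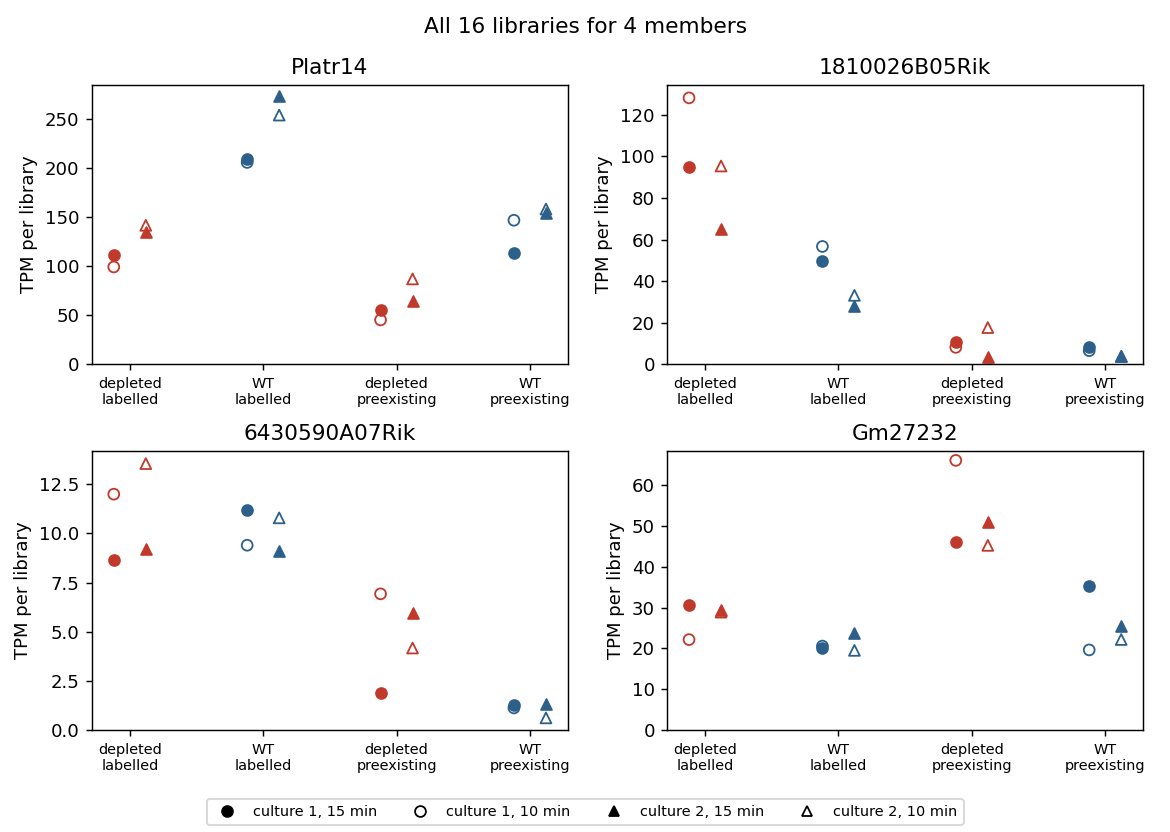
TPM in each of the 16 libraries for 4 members, Dicer-depleted left of WT within each fraction; circles are culture 1 and triangles culture 2, filled for 15 and open for 10 minutes of labelling. Platr14 is lower in every depleted library than in every WT library of its fraction, and 1810026B05Rik is higher in every depleted labelled library, at 65.2 to 128 TPM, than in WT ones, at 28 to 56.7 TPM.

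Several of the other members with small p in preexisting RNA lie partly or wholly over exons of a coding gene on the other strand. Gm27232 lies with 100% of its length over exons of Rfx7, a transcription factor gene. It had 46.1 and 50.9 TPM in the 15 minute and 66.0 and 45.2 TPM in the 10 minute preexisting libraries of depleted cells, and 35.3 and 25.5 TPM and 19.6 and 22.2 TPM in those of WT cells. No depleted library was as low as any WT library. Its log2 difference was 0.99 (SE 0.18, limma adjusted p = 0.0803), and that of Rfx7 was 0.71 (SE 0.15, limma adjusted p = 0.108), at 118 and 118 TPM in depleted and 66.6 and 77.2 TPM in WT preexisting RNA. Gm26738, with 94.7% of its length over exons of St7, had 4.22 and 3.95 TPM in depleted and 0.976 and 0.691 TPM in WT preexisting RNA, a difference of 1.48 beside 0.84 for St7. Gm42893, with 100% over exons of the centriole gene Sass6, had 8.10 and 8.23 TPM in depleted and 2.34 and 3.06 TPM in WT preexisting RNA, a difference of 1.31 beside 0.93. Gm17201, with 59.5% over exons of Ankrd52, had 9.39 and 10.9 TPM in depleted and 2.26 and 2.85 TPM in WT preexisting RNA, a difference of 1.65 beside 1.17. Averaged by culture, depleted and WT values of these 3 members did not overlap. The labelling times differed: with the 10 minute libraries alone the difference was 2.18 for Gm26738 and 1.82 for Gm42893, and with the 15 minute libraries alone 0.44 and 0.74. In the 15 minute libraries of Gm26738, depleted cells had 0.993 and 2.89 TPM and WT cells 1.49 and 0.688 TPM, so the genotypes overlapped there. Gm43126, with 86.7% over exons of the cyclin D2 gene Ccnd2, had 1.46 beside 1.36. None of these values passed the adjusted threshold, although Gm26738 did with a pseudocount of 0.1 TPM (limma adjusted p = 0.0441). With a replicate block Gm26738 (limma adjusted p = 0.0495) and Gm17201 (limma adjusted p = 0.0476) passed. All the members above, each higher in depleted cells, stand on the same side as their partners. On the lower side in preexisting RNA, Gm43118 had -0.88 beside -0.38 for Pitpnb, and Gm26619 -0.72 beside -0.74 for Gm10260. 1110002L01Rik had -0.84 beside 0.0005 for Kif3c, which was at 1.17 to 1.93 TPM.

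A shared side was common, but not general, beyond the named pairs. Of 116 members with a coding exon on the other strand, 114 had a tested partner, and member and partner had the same sign in 87 in preexisting and 94 in labelled RNA. Across these genes the correlation of the log2 differences was r = 0.71 (Spearman 0.65) in preexisting and r = 0.77 (Spearman 0.77) in labelled RNA. For the 58 with at least 50% of their length over partner exons it was 0.80 and 0.88, and for the 56 with less it was 0.55 and 0.57. In 26 members inside a coding gene on the other strand without exon overlap it was -0.32 in preexisting and 0.62 in labelled RNA, with the same sign in 13 and 19. These correlations are across genes that share the same cultures, libraries and loci and are descriptions. How much of a member's signal is reads of its partner was not tested.

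**Figure D5:**
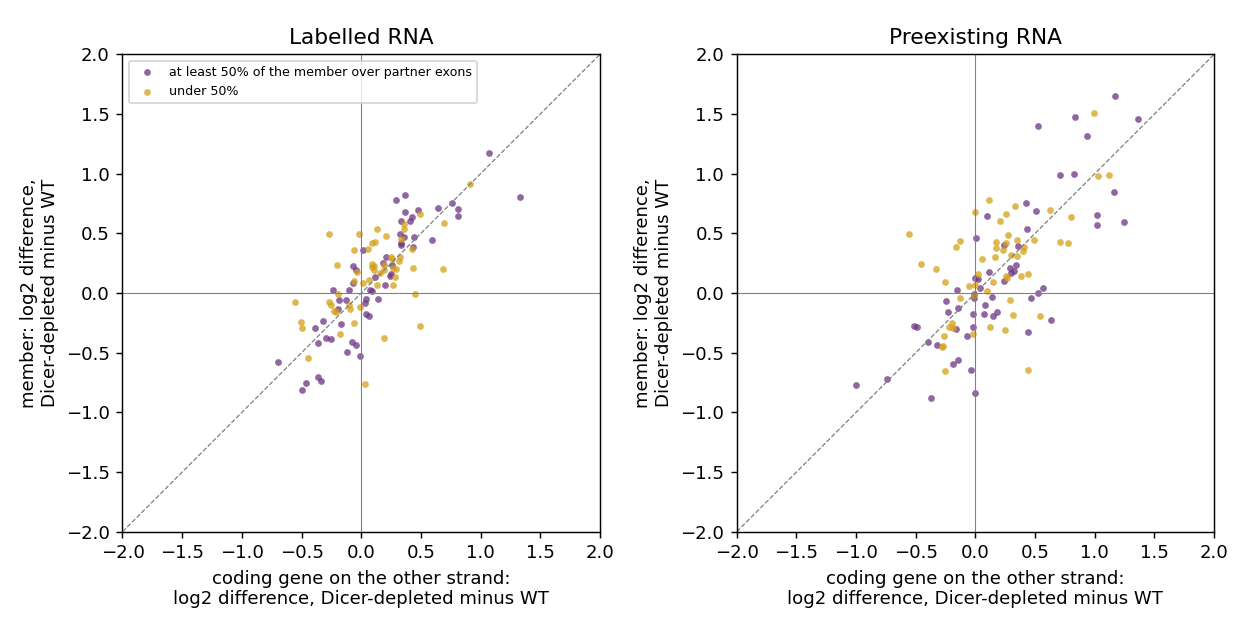
Log2 difference between Dicer-depleted and WT cells of each member (vertical) against that of the coding gene whose exons it overlaps on the other strand (horizontal), in labelled (left) and preexisting RNA (right); the dashed line marks equal values. Members with at least 50% of their length over partner exons (purple) had r = 0.88 and 0.80, and those with less (yellow) had r = 0.57 and 0.55.

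In labelled RNA the members with the smallest p on the higher side were Gm27010, Gm43126, A730036I17Rik, 1810026B05Rik, Gm26738 and Dleu2. 1810026B05Rik (Chaserr) had 95.1 and 65.2 TPM after 15 minutes and 128 and 95.4 TPM after 10 minutes in depleted cells, and 49.5 and 28 TPM and 56.7 and 33.2 TPM in WT cells. Every depleted library exceeded every WT library. Its difference was 1.21 (SE 0.36, limma adjusted p = 0.297), and in preexisting RNA, where it had 9.49 and 10.6 TPM in depleted and 7.49 and 3.78 TPM in WT cultures, it was 0.79 (limma adjusted p = 0.306). Its introns had 202 and 143 TPM in depleted and 95.6 and 53.5 TPM in WT labelled RNA (log2 1.23, limma adjusted p = 0.0827).

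Dleu2 is the host transcript of miR-15a and miR-16-1, so the RNA measured here is upstream of the step that Dicer carries out. It had 48.8 and 52 TPM in depleted and 25.05 and 29.97 TPM in WT labelled RNA, and 19.4 and 24.7 TPM in depleted and 9.75 and 16.9 TPM in WT preexisting RNA. The genotypes did not overlap in either fraction. Annotated microRNAs lie inside 8 members in all. For Dleu2 the differences were 0.85 (limma adjusted p = 0.31) and 0.72 (limma adjusted p = 0.239), and in introns 0.97 (limma adjusted p = 0.0571), at 84.2 and 77.9 TPM in depleted and 40.6 and 41.0 TPM in WT labelled RNA. Mir124a-1hg, the other gene on the list of microRNA hosts, had 1.09 in labelled and 1.51 in preexisting RNA, with 13.3 and 8.55 TPM in depleted and 5.66 and 3.55 TPM in WT labelled RNA, and neither passed (limma adjusted p = 0.339 and 0.146).

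Gm27010 and A730036I17Rik are annotated as lincRNAs. Gm27010 lies within the bounds of Dleu2 on the same strand, so unspliced Dleu2 reads and Gm27010 reads cannot be told apart there. It had 11.9 and 14.8 TPM in depleted and 5.16 and 5.73 TPM in WT labelled RNA (log2 1.15, limma adjusted p = 0.26), while preexisting RNA had 1.20 and 1.82 TPM in depleted and 2.12 and 0.948 TPM in WT cells. In depleted cells its labelled level was 6.32 and 11.5 TPM after 15 minutes and 17.5 and 18.0 TPM after 10 minutes. A730036I17Rik had 10.7 and 12.9 TPM in depleted and 5.86 and 5.41 TPM in WT labelled RNA (log2 0.94, limma adjusted p = 0.296). On the lower side, after Platr14, came 2810408I11Rik (-0.76), 1110002L01Rik (-0.74), Gm43549 (-0.59), Gm26619 (-0.58) and Gm26510 (-0.65), of which Gm26510 is exon-clear. In preexisting RNA 2010204K13Rik, a spliced transcript of the X chromosome, had 10.8 and 8.62 TPM in depleted and 40.1 and 17.8 TPM in WT cells (log2 -1.38, limma adjusted p = 0.14). The genotypes did not overlap, and the WT cultures were far apart.

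The ratio of preexisting to labelled RNA, which falls when an RNA is less stable relative to its synthesis, was compared between genotypes as an interaction. Of 319 members 0 passed, where 0.0642% of all genes were called, and 7 had an unadjusted p under 0.05, or 2.19% against 2.76% of all genes. The median was -0.00 for the members and -0.02 for all genes. Gm17201 (1.40), 6430590A07Rik (1.37) and Gm20548 over Wdfy3 (1.31) were on the higher side, and Gm27010 (-1.13) and Gm38246 (-0.84) on the lower. Gm20548 rested on the 10 minute libraries: with the 15 minute libraries alone its value was -0.016.

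Members with and without seed sites were set side by side. In preexisting RNA the 36 members with a miR-294-3p site had a median difference of 0.06 and the 283 without had 0.13. With an 8-base site, held by 10 members, the median was on the other side of 0, at -0.14. In labelled RNA the medians were 0.24 with and 0.13 without, and in the ratio -0.15 and 0.02. The ratio was above 0 in 12 of the 36, where it was in 159 of 319 members and 10507 of 21821 genes. It was above 0 in 0 of the 10 members with an 8-base site, at a median of -0.22. Over all lncRNA genes of at least 1 TPM it was above 0 in 12 of 39 with an 8-base site, and in 457 of 1068 in all. Of the 36, 21 were above 0 in preexisting RNA, where 196 of 319 members (61.4%) and 54.4% of all genes were, and 0 passed. G530011O06Rik had 0.66 (limma adjusted p = 0.193), Gm42893, the member over Sass6, 1.31 (limma adjusted p = 0.0581), Gm26526 1.05 and Gm26763 0.27, while Gm38246 had -0.46 and Gdap10 -0.50. The 3 with the identical window shown first had -0.18 (5430405H02Rik), 0.38 (Gm26518) and 0.65 (Gm26699). All 5 members with a window within 2 mismatches of it, these 3 included, ran from -0.18 to 0.79 with a median of 0.64. The 20 members with a miR-17-5p site (GCACTTT) had a median of 0.28, against 0.11 without, in preexisting RNA, and over all lncRNA genes of at least 1 TPM the medians were 0.11 and 0.09; 9 members held both sites in 1 overlapping run of 8 bases. The other families searched gave medians on both sides of those without a site: 0.19 with and 0.11 without for miR-92a-3p, 0.14 and 0.11 for miR-26a-5p, 0.06 and 0.13 for miR-16-5p, 0.01 and 0.13 for miR-182-5p, and 0.06 and 0.13 for miR-148a-3p. For comparison, 7 members held a site (CGTCTTA) for miR-208a-3p, a heart microRNA whose family had 0.293 RPM at day 8 and 2.86 RPM at day 0, and their median was -0.04. This heart microRNA was not among the comparison microRNAs first planned. Sites for those, and for the planned miR-30d-5p family, are not reported. No test was made across members, since length and partner genes differ with the sites.

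The families behind the other sites searched also had lower RPM at day 8 than at day 0. The miR-17-5p family kept 1.86% of its day 0 RPM, the miR-92a-3p family 2.83%, the miR-148a-3p family 2.35%, the miR-26a-5p family 4.47%, miR-182-5p 6.21% and the miR-16-5p family 9.27%. Each had day 8 libraries below all day 0 libraries (exact two-sided permutation p = 0.1 each, 7 families). With reads on microRNAs as the library size, the kept shares ran from 31% to 149%.

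Intronic signal of labelled RNA, closest to transcription itself, passed in 5 of 256 members with introns, all higher in depleted cells, or 1.95%, where 3.9% of all genes with introns passed as higher; 66 had an unadjusted p under 0.05, or 25.8% against 31.7%. They were A730036I17Rik, Gm26882, Gm29237, Gm26625 and Platr30. A730036I17Rik introns had 7.41 and 9.30 TPM in depleted and 3.79 and 2.86 TPM in WT labelled RNA (log2 1.11, SE 0.17, limma adjusted p = 0.0321). Gm29237, inside Sptbn1 on the other strand, had 13.3 and 11.8 against 6.49 and 6.53 TPM (limma adjusted p = 0.0352), and Gm26625, inside Ezh2, had 10.5 and 9.73 against 5.56 and 5.69 TPM (limma adjusted p = 0.0449). Of these 5, A730036I17Rik is exon-clear. Intronic signal as a whole was higher in depleted cells, at 22% and 20.9% of labelled signal against 16.7% and 17.6% in WT cells, and the median gene with introns differed by 0.28 and the median member by 0.26. With values centred on the median gene 0 members passed, and 0 passed without any 1 of the 4 cultures.

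Labelled RNA after 15 and after 10 minutes was compared over 8 libraries. At a limma adjusted p under 0.05, 0 of 319 members differed, where 0.0687% of all genes were called, and 38 had an unadjusted p under 0.05, or 11.9% against 10.2% of all genes. The median was -0.03 for members and 0.01 for all genes. The 14 exon-clear members inside a coding gene on the same strand had a median of -0.35, and the 14 members with snoRNAs inside had 0.12.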

How the data were processed

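The RNA table holds a signal per exonic or intronic sequence, deposited by the authors; its columns each sum to 9999997 to 10000003, so values were divided by 10 to give TPM. Ribosomal reads were removed with STAR 2.5.0 and sequences quantified with RSEM, per the labels' protocols and the submitters' processing notes. Exonic entries were summed per GENCODE M21 gene. The small RNA table holds counts per miRBase 21 microRNA, deposited by the authors, made with cutadapt 1.8, Bowtie2 (mm10) and HTSeq per the submitters' processing notes; its summary lines, which include reads not on microRNAs (78.7% to 99.6%), entered the library totals.

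The 2 labelling times of a culture were averaged, giving 2 cultures per group. limma 3.58.1 (R 4.3.3) was fitted with a mean trend to log2(TPM + 1) for 21821 genes of at least 1 TPM, all 4 groups together, with Benjamini-Hochberg adjustment over all genes and a threshold of 0.05; intronic sums of 12472 genes were fitted likewise. Log2 differences understate changes of low genes. Labelled and preexisting RNA with the same genotype and number are taken as fractions of 1 culture, which the titles do not state. Their deviations correlated at 0.05 in depleted and 0.35 in WT cells. With culture as a block, labelled against preexisting RNA called 208 members in depleted and 194 in WT cells. With the ratio taken per culture 0 members passed. The fit was tested on simulated data. Named genes were the 12 most abundant members, the members with the smallest p or largest called difference in each direction and comparison, and the listed genes; members used as examples of partners and sites were chosen after their values were seen. The members and lists were chosen with earlier results of these data known. Tables were handled with Python 3.11.15, pandas 2.3.3, numpy 2.4.6 and scipy 1.17.1, and figures drawn with matplotlib 3.10.9. Alternatives covered the pseudocount, the filter, centring, the samples in the fit, the labelling time, averaging, a replicate block and leaving out each culture.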

Additional observations from a re-analysis of the deposited data

How the results depend on the processing

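In preexisting RNA the genotype count of 0 members became 2 with a pseudocount of 0.1 TPM (6430590A07Rik and Gm26738), 1 with genes of at least 5 TPM alone (6430590A07Rik), 1 with libraries averaged on the log2 scale (6430590A07Rik, an alternative chosen after seeing the data) and 4 with the replicate block (6430590A07Rik, Gm26738 and Gm17201 higher, Platr14 lower). Leaving out each culture gave 0 to 0 there. The labelled, ratio and labelling time counts were 0 under every alternative that was run. The replicate numbers pair 2 cultures per genotype with nothing in the labels on a shared day, so no pairing across genotypes entered the fit. Deviations of same-numbered cultures of the 2 genotypes correlated at 0.13 in labelled and 0.20 in preexisting RNA across genes. The 2 fractions taken as 1 depleted culture correlated at only 0.05. These values therefore cannot decide whether same-numbered cultures share more than a number. Labelled against preexisting RNA called 179 members in WT and 188 in depleted cells; 88 and 89 with members of at least 10 TPM, 83 and 82 with exon-clear members (an alternative chosen after seeing the data), both from testing fewer members, and 0 to 158 and 96 to 154 on leaving out each culture. The intronic count of 5 became 2 without members over coding exons, 2 with members of at least 10 TPM, 1 with exon-clear members, 0 with a pseudocount of 0.1 TPM, with genes of at least 5 TPM, with centring, with the compared groups alone or with the 15 minute libraries, 1 with the 10 minute libraries, 21 with the replicate block, and 0 to 0 on leaving out each culture. With reads on microRNAs as library size the kept shares were 36.6% for the miR-294-3p family, 31% for miR-17-5p, 47.8% for miR-92a-3p, 149% for miR-16-5p, 103% for miR-182-5p, 73.2% for miR-26a-5p and 39.6% for miR-148a-3p. With an 8-base site the preexisting median of members with a miR-294-3p site was -0.14. The ratio of Gm20548 reversed to -0.016 with the 15 minute libraries. For the named members, 921 of the values under an alternative kept their direction and side of the threshold, 110 lost the call, 9 gained it and 1 reversed. Except where fewer members or cultures entered, the cause was not tested. The TPM table gives no depth, and 2 cultures a group limit each test.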
